A study of Mus musculus with 10 samples.

Results

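The genes described here are 38 genes that T cells, natural killer (NK) cells, B cells and plasma cells are known for, read by symbol from a table of read counts for 56750 features of the mouse genome. They fall into the T cell receptor (TCR) complex (4 genes), its proximal kinases (2), the coreceptors (3), T cell surface and costimulatory receptors (5), checkpoint receptors (3), regulatory T cell and cytokine receptor genes (4), cytotoxic granule genes (4), NK receptors (3), T-box factors (2), B cell genes (5), plasma cell genes (2) and the pan-leukocyte gene Ptprc. All 38 were found in the table, and they were listed by what they are known for. Bulk RNA-seq was done on mouse sarcomas of 2 models. The 3 dFLEx tumors (170019, 170024 and 170025) came from mice labelled dFLEx CDS +/-, in which a CAG-driven, HA-tagged CIC::DUX4 fusion from a Rosa26 construct is expressed only after both Cre and FLPE have acted, and naked plasmids for both recombinases were electroporated into the gastrocnemius muscle. The 2 KP tumors (3800 and 3802) had the genotype KRASloxP-STOP-loxP-G12D; p53fl/fl, and how these were started is not given in the sources used here. The labels give no age or sex and do not say that each tumor came from its own animal, so p-values measure the spread between these tumors.

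Lymphocytes read antigen through receptors that signal by way of associated chains. In T cells the CD3 chains carry the signal of the TCR to the kinases Lck and Zap70, the coreceptors CD4 and CD8 bind major histocompatibility complex molecules, and costimulatory receptors (CD28, ICOS) and checkpoint receptors (CTLA-4, PD-1, LAG-3) raise or restrain the response. Cytotoxic T cells and NK cells kill with granzymes and perforin, B cells signal through CD79A and CD79B, and plasma cells secrete antibody. A solid tumor holds these cells only as an infiltrate, so the genes are usually low in bulk tumor RNA.

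Library totals ran from 20503474 to 46302223 counts, and the duplicate libraries of a tumor, made from 1 RNA, were summed. Tumor 3802 stood apart: 1 library of it was analysed here, its total was the lowest, and it had the most features with a count (36904 against 24280 to 31768 in the other libraries). Transcripts of the fusion were found at 89.3, 192 and 409 counts per 1000000 counts of the library (CPM) in the dFLEx tumors, at 0 counts in 3800 and at 6 counts in 3802. Between duplicates, genes of the 38 with at least 20 counts in both libraries differed by a median absolute log2 ratio of 0.168 to 0.272 per tumor, and by 1.31 at most (Zap70 in 3800). Levels below are CPM scaled by TMM (a normalization between libraries), and each set of values is given in the order 170019, 170024, 170025 for dFLEx and 3800, 3802 for KP.

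Icos, Cd28 and Ctla4 are neighbours on chromosome 1 and encode related receptors of the same family, and they had unlike levels in these tumors. Their promoters are shown because Icos stood apart from the other 37 genes in the comparison that follows. Each is the run of 250 bases before the annotated start of the canonical transcript (GRCm39, plus strand, 5′ to 3′), at chr1:61016836-61017085 for Icos, chr1:60785267-60785516 for Cd28 and chr1:60947934-60948183 for Ctla4. Capitals mark matches, on either strand, to an octamer bound by CIC (TGAATGAA, TGAATGGA, TCAATGAA or TCAATGGA), to an ETS motif (CCGGAAGT) or to a RUNX motif (TGTGGT).

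Icos: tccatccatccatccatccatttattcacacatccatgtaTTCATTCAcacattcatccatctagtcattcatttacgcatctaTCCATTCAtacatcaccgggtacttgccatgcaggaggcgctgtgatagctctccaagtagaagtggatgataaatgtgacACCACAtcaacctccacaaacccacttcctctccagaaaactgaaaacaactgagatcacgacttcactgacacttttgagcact

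Cd28: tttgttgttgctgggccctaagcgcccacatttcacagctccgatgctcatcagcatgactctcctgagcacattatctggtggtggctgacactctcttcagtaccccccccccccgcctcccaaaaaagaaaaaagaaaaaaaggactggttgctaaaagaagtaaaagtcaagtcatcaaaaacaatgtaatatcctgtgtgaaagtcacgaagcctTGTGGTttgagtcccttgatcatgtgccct

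Ctla4: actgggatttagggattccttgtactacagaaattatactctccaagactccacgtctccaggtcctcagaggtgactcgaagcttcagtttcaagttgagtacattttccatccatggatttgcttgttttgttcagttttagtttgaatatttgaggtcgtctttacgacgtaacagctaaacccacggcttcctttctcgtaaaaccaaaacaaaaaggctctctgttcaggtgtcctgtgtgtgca

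The Icos window began with repeats of tcca and held 2 CIC octamers on the minus strand, TGAATGAA at 210 to 203 bases and TGAATGGA at 166 to 159 bases before the start, and a RUNX match at 85 to 80 bases. In the Cd28 window 1 RUNX match was found, at 30 to 25 bases before the start, and the Ctla4 window held no match. Of the 38 genes, Icos was the 1 gene with a CIC octamer in this window, against 3.03% of 21757 protein-coding promoters with at least 1 and 0.29% with 2 or more. The RUNX motif was matched in 12 of the 38 and in 13% of all promoters, and the ETS motif in 0 of the 38 and in 2.64% of all. The search was added after the level of Icos was seen, and a match of letters does not show that a factor binds there.

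The first comparison asked which lymphocyte genes differed between dFLEx and KP tumors. Icos, the inducible costimulator of T cells, was far higher in the dFLEx tumors, while 36 of the other 37 genes had a lower fitted level there. The median log2 fold change (dFLEx against KP) of the 38 was -1.96, beside -0.18 over all 24743 genes tested. No gene of the 38 passed the threshold (edgeR quasi-likelihood test, Benjamini-Hochberg adjusted p under 0.05 over all tested genes), which 0.182% of all genes passed, and the smallest adjusted p was 0.0920, for Icos. In bulk RNA, fewer cells of a type and less RNA per cell cannot be told apart.

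At an unadjusted p under 0.05, 13 of the 38 genes (34.2%) were lower in dFLEx, against 4.93% of all genes tested, and 1 (2.63%) was higher, against 5.65%. In 24 genes (63.2%) each dFLEx tumor lay below both KP tumors, which held for 11.7% of all genes, and in 1, Icos, each lay above both, which held for 13.7%. DESeq2 on the same tumor sums called 6 of 37 genes with an adjusted p lower in dFLEx (16.2%, against 2.62% of all genes), namely Cd3d, Cd8b1, Pdcd1, Nkg7, Pax5 and Jchain. It called 1 higher, Icos (2.7%, against 3.45%). Much of the difference lay in 1 KP tumor. Tumor 3802 was above each dFLEx tumor in 36 genes (94.7%, against 37.6% of all genes), and tumor 3800 in 24 genes (63.2%, against 28.5%). Without 3802 the median of the 38 was -0.76, beside 0.34 over all genes, 12 genes were higher in dFLEx, and at an unadjusted p under 0.05 there were 5 lower (Cd6, Ctla4, Pdcd1, Foxp3 and Ptprc; 13.2%, against 6.34% of all genes) and 2 higher (Icos and Cd79a; 5.26%, against 8.56%). The fit without 3802 leaves 3800 as the 1 KP tumor, so its p-values rest on the spread between dFLEx tumors alone. The genes named from that fit are therefore not calls, and their difference from KP tumors in general was not tested. Tumor 3802 also had the most features with a count and the highest background (below), and their part in its levels was not tested. The plot of levels by tumor shows these patterns gene by gene.

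**Figure D1:**
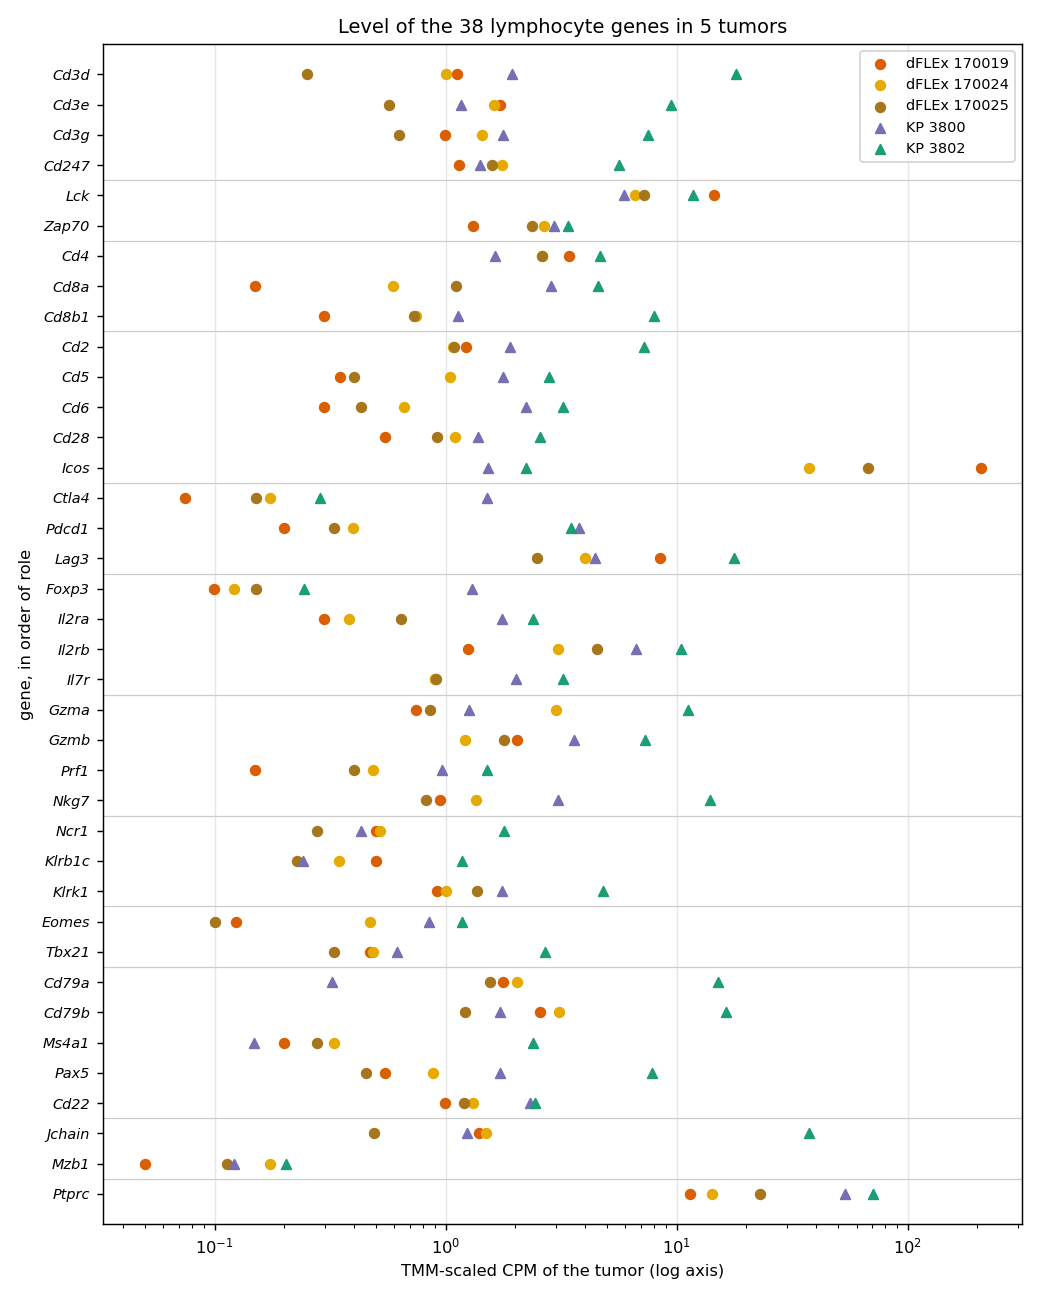
Level of each of the 38 genes in each tumor (x axis, TMM-scaled CPM on a log axis; circles, 3 dFLEx tumors; triangles, 2 KP tumors; lines separate the roles). KP tumor 3802 is the highest point in 33 of the 38 rows, and Icos is the 1 row in which the 3 dFLEx tumors, at 37.3 to 207 CPM, lie to the right of both KP tumors.

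Icos was measured at 207, 37.3 and 67.1 CPM in the dFLEx tumors and at 1.52 and 2.23 CPM in the KP tumors. Even the dFLEx tumor with the least Icos exceeded the higher KP tumor 16.7-fold, and the dFLEx tumors differed among themselves by up to 5.53-fold. The fitted log2 fold change was 5.79 (SE 1.04, edgeR adjusted p = 0.0920, DESeq2 adjusted p = 4.12e-09). It ranged from 4.74 to 6.21 with each tumor left out in turn, with edgeR adjusted p from 0.102 to 0.203 where a dFLEx tumor was left out. The difference was seen in each library: scaled by library, Icos stood at 197 and 238 CPM in the duplicates of 170019, at 36.8 and 36.9 in those of 170024 and at 60.8 and 59.4 in those of 170025, against 1.62 and 1.21 in those of 3800 and 2.63 in the library of 3802. Icos (ENSMUSG00000026009 in the table) lies at chr1:61017086-61039479 on the plus strand and shares no exon with another annotated gene. By log2 fold change it ranked 194 among the 24743 genes tested.

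Neither the genes beside Icos nor other T cell genes showed this pattern. All 11 other protein-coding genes within 1000000 bases of it had an unadjusted p above 0.05, Cd28 and Ctla4 among them. Cd28, the founding costimulatory receptor of naive T cells, was measured at 0.547, 1.09 and 0.920 CPM in dFLEx and 1.38 and 2.56 in KP (edgeR log2 fold change -1.20, standard error 0.85, adjusted p = 0.786). Each dFLEx tumor lay below both KP tumors. Per kb of exon, Icos was 143, 27.5 and 141 times the level of Cd3e in the dFLEx tumors and 1.54 and 0.282 times in the KP tumors. Against Cd28 per kb the ratio was 674, 61.0 and 130.3 in dFLEx and 1.96 and 1.56 in KP. On that scale Icos was the highest of the 38 genes in each dFLEx tumor, and ranked 19 in 3800 and 26 in 3802. Icosl, which encodes the ligand of ICOS, was measured at 7.29, 8.91 and 16.0 CPM in dFLEx and 10.2 and 9.43 in KP, and the groups overlapped (edgeR log2 fold change 0.13, standard error 0.62, adjusted p = 0.978).

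**Figure D2:**
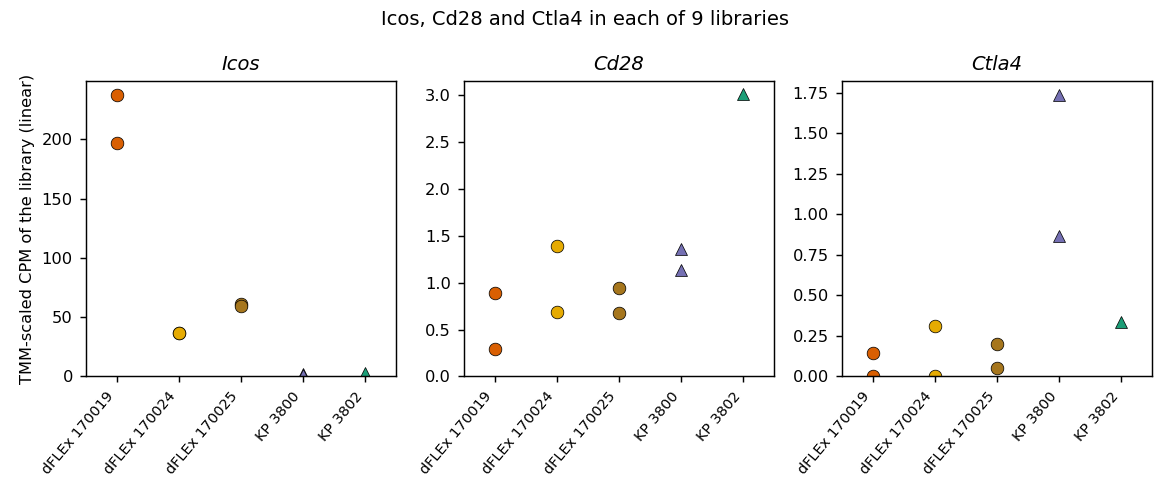
Icos, Cd28 and Ctla4 in the 9 libraries (y axis, TMM-scaled CPM of the library on a linear axis that differs between panels; x axis, tumor; 1 point per library). The 6 dFLEx libraries hold Icos at 36.8 to 238 CPM and the 3 KP libraries at 1.21 to 2.63, while Cd28 stays at or below 3.02 and Ctla4 at or below 1.74 in every library.

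The CD3 chains of the TCR complex were low in all dFLEx tumors and in 3800, and higher in 3802. Cd3d was measured at 1.12, 1.01 and 0.252 CPM in the dFLEx tumors and 1.93 and 18.0 in the KP tumors. Cd3e was at 1.72, 1.61 and 0.567 CPM in dFLEx and 1.17 and 9.43 in KP. Cd3g stood at 0.995, 1.44 and 0.630 CPM and 1.77 and 7.52, and Cd247, the zeta chain, at 1.14, 1.75 and 1.59 and 1.41 and 5.61. Cd3d and Cd3g were lower in each dFLEx tumor than in both KP tumors, while for Cd3e and Cd247 tumor 3800 fell among the dFLEx tumors. Cd3d had the largest fitted difference of the 4 (edgeR log2 fold change -3.65, standard error 1.07, adjusted p = 0.246, DESeq2 adjusted p = 0.00709), and it was -1.28 without 3802. That of Cd3e changed from -2.02 to 0.17 and that of Cd247 from -1.22 to 0.10 without 3802. Annotated exons of Gm16565 and Pou2f1 overlap 60.3% of the exon bases of Cd247, and reads over several genes were not counted. Summed, the 4 chains stood at 4.98, 5.81 and 3.04 CPM in dFLEx and 6.29 and 40.6 in KP.

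Of the kinases next to the receptor, Lck overlapped between the groups and Zap70 did not. Lck, the Src-family kinase that phosphorylates the CD3 chains, was measured at 14.5, 6.61 and 7.18 CPM in dFLEx and 5.90 and 11.8 in KP. The groups overlapped, and the highest level was in dFLEx tumor 170019 (edgeR log2 fold change 0.09, standard error 0.67, adjusted p = 0.986). The sign turned with other scalings, to -0.27 with library totals. Zap70, which docks on the phosphorylated chains, was at 1.32, 2.67 and 2.36 CPM in dFLEx and 2.96 and 3.37 in KP (edgeR log2 fold change -0.58, standard error 0.70, adjusted p = 0.897). For it each dFLEx tumor lay below both KP tumors. Per kb of exon, Lck was 11.7, 5.71 and 17.6 times the level of Cd3e in dFLEx and 7.03 and 1.74 times in KP.

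Among the coreceptors, both CD8 chains were lower in the dFLEx tumors, while Cd4 overlapped. Cd8a was measured at 0.149, 0.590 and 1.11 CPM in dFLEx and 2.86 and 4.55 in KP. Each dFLEx tumor lay below both KP tumors (edgeR log2 fold change -2.57, standard error 0.95, adjusted p = 0.379), also without 3802 (-2.18). Cd8b1 was at 0.299, 0.746 and 0.731 CPM in dFLEx and 1.13 and 8.00 in KP (edgeR log2 fold change -2.93, standard error 0.98, adjusted p = 0.314, DESeq2 adjusted p = 0.0428, -0.91 without 3802). Cd4, which macrophages and dendritic cells can also express, was at 3.43, 2.60 and 2.61 CPM in dFLEx and 1.64 and 4.67 in KP. Tumor 3800 was the lowest of the 5 and 3802 the highest for Cd4, and its log2 fold change was -0.13, or 0.83 without 3802. Per kb of exon, Cd8a was 0.0482, 0.251 and 0.471 times the level of Cd4 in dFLEx and 1.94 and 1.08 times in KP, so that each dFLEx tumor lay below both KP tumors in this ratio too. In 170019, however, Cd8a had 6 and 0 counts in its libraries and did not exceed the background (given below).

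Cd2, Cd5 and Cd6 encode surface receptors of mature T cells, and each was lower in every dFLEx tumor than in both KP tumors. Cd2, which binds CD48 on other cells, was measured at 1.22, 1.08 and 1.08 CPM in dFLEx and 1.91 and 7.23 in KP. Cd5, an inhibitory scavenger receptor, was at 0.348, 1.04 and 0.403 CPM and 1.77 and 2.80, and the related Cd6 at 0.299, 0.659 and 0.428 and 2.23 and 3.21. For Cd5 and Cd6 tumor 3800 lay close to 3802, and the log2 fold changes with and without 3802 were -1.93 and -1.55 for Cd5 and -2.55 and -2.25 for Cd6. Those of Cd2 were -2.02 and -0.74. The edgeR adjusted p of these 3 genes with all tumors was 0.310 to 0.537.

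Pdcd1, which encodes PD-1, separated the groups by the widest margin among those of the 38 genes that were lower in each dFLEx tumor. It was measured at 0.199, 0.399 and 0.328 CPM in dFLEx and 3.76 and 3.49 in KP, and its lower KP value exceeded its top dFLEx value 8.76-fold. Both KP tumors were alike (edgeR log2 fold change -3.54, standard error 0.81, adjusted p = 0.144, DESeq2 adjusted p = 0.00206), and without 3802 the log2 fold change was -3.57. Ctla4, which competes with CD28 for its ligands, was at 0.0746, 0.173 and 0.151 CPM in dFLEx and 1.50 and 0.284 in KP, with the highest level in 3800. In the second libraries of 170019 and 170024 it had 0 counts, which allows up to 0.132 and 0.109 CPM (3 counts of the library total; counting error only). Lag3, a receptor for class II molecules that plasmacytoid dendritic cells also carry, was at 8.43, 4.02 and 2.49 CPM in dFLEx and 4.41 and 17.7 in KP. Its groups overlapped, and the log2 fold change moved from -1.15 to 0.20 without 3802.

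Foxp3 and Ctla4, which regulatory T cells express together, shared the order of the tumors at their upper end: highest in 3800, then 3802, with the dFLEx tumors below. Foxp3 was measured at 0.0995, 0.121 and 0.151 CPM in dFLEx and 1.30 and 0.244 in KP (edgeR log2 fold change -2.62, standard error 1.34, adjusted p = 0.596, -3.34 without 3802). Tumor 3802, which was the highest in 33 of the 38 genes, was thus below 3800 for both, at 0.187 and 0.189 times its level. The levels of both in 3802 and 170019 did not exceed the background set from sensory receptor genes (given below), and that of Foxp3 did not in 170024 either. Relative to Cd3e per kb, Foxp3 was 0.0517, 0.0671 and 0.238 in dFLEx and 0.994 and 0.0231 in KP. Annotated exons of other genes overlap 31.5% of the exon bases of Foxp3.

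The cytokine receptor genes were lower in each dFLEx tumor than in both KP tumors. Il2ra, the high-affinity chain of the interleukin-2 receptor, was measured at 0.299, 0.381 and 0.642 CPM in dFLEx and 1.75 and 2.40 in KP. Il2rb, the chain shared with the interleukin-15 receptor, was at 1.24, 3.05 and 4.50 CPM and 6.69 and 10.5, and Il7r, a survival receptor of naive and memory T cells, at 0.896, 0.902 and 0.907 and 2.02 and 3.21. The 3 dFLEx tumors were nearly equal for Il7r. Without 3802 the log2 fold changes were -1.96 for Il2ra, -1.17 for Il2rb and -1.14 for Il7r, against -2.22, -1.55 and -1.53 with it (edgeR adjusted p from 0.422 to 0.575).

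Of the cytotoxic granule genes, Nkg7, Gzmb and Prf1 were lower in each dFLEx tumor than in both KP tumors, and Gzma overlapped. Nkg7, a granule membrane protein of cytotoxic lymphocytes, was measured at 0.945, 1.35 and 0.819 CPM in dFLEx and 3.05 and 13.9 in KP (edgeR log2 fold change -3.02, standard error 0.81, adjusted p = 0.204, DESeq2 adjusted p = 0.0103, -1.54 without 3802). Gzmb, the caspase-cleaving granzyme, was at 2.04, 1.21 and 1.79 CPM in dFLEx and 3.59 and 7.31 in KP, and the pore-forming Prf1 at 0.149, 0.486 and 0.403 and 0.967 and 1.50. Gzma, a granzyme of tryptase specificity, was at 0.746, 3.00 and 0.857 CPM in dFLEx and 1.26 and 11.1 in KP. For Gzma dFLEx tumor 170024 was above KP tumor 3800, and the log2 fold change turned from -2.01 to 0.30 without 3802.

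NK receptor genes were at or below 1.75 CPM in every tumor but 3802. Ncr1, which encodes NKp46, was measured at 0.498, 0.520 and 0.277 CPM in dFLEx and 0.430 and 1.79 in KP. Klrb1c, the NK1.1 antigen gene of some strains, was at 0.498, 0.347 and 0.227 CPM and 0.242 and 1.18, and Klrk1, which encodes the activating receptor NKG2D, at 0.920, 1.01 and 1.37 and 1.75 and 4.79. For Ncr1 and Klrb1c tumor 3800 fell within the dFLEx range, and for Klrk1 each dFLEx tumor lay below both KP tumors. Without 3802 their log2 fold changes were 0.02, 0.57 and -0.65. The T-box factors Eomes and Tbx21, which drive effector programmes of NK and CD8 T cells, were lower in each dFLEx tumor. Eomes was at 0.124, 0.468 and 0.101 CPM in dFLEx and 0.846 and 1.18 in KP, and Tbx21 at 0.473, 0.486 and 0.328 and 0.618 and 2.68.

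B cell genes divided into those that were high in 3802 alone and those higher in both KP tumors. Cd79a, a signalling chain of the B cell receptor, was measured at 1.77, 2.03 and 1.55 CPM in dFLEx and 0.322 and 15 in KP. Tumor 3800 was thus the lowest of the 5 and 3802 the highest, 46.6-fold apart, and the log2 fold change went from -2.10 (edgeR adjusted p = 0.670) to 2.48 without 3802. Cd79b, the partner chain, was at 2.56, 3.09 and 1.21 CPM in dFLEx and 1.72 and 16.4 in KP, and Ms4a1, which encodes CD20, at 0.199, 0.329 and 0.277 and 0.148 and 2.40. Both overlapped between the groups and turned in sign without 3802, to 0.43 for Cd79b and 0.87 for Ms4a1. Per kb of exon, Ms4a1 in 3802 was at 0.387 CPM, barely above the background there of 0.376 (given below). It did not exceed background in 170019 and 170024. Pax5, the factor that fixes B cell identity, was at 0.547, 0.884 and 0.453 CPM in dFLEx and 1.72 and 7.80 in KP, and Cd22, an inhibitory sialic acid receptor, at 0.995, 1.32 and 1.20 and 2.31 and 2.44. These 2 genes were lower in each dFLEx tumor than in both KP tumors, with log2 fold changes without 3802 of -1.43 and -0.96.

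Jchain, which joins polymeric antibody in plasma cells, had the lowest log2 fold change of the 38 and rested on 1 tumor. It was measured at 1.39, 1.49 and 0.491 CPM in dFLEx and 1.24 and 37.2 in KP. Tumor 3800 lay among the dFLEx tumors, and the log2 fold change was -4.09 (SE 1.24, edgeR adjusted p = 0.259, DESeq2 adjusted p = 0.00367) with 3802 and -0.12 without it. Mzb1, a chaperone of antibody folding, was the 1 gene under 1 CPM in every tumor, between 0.0498 and 0.203 CPM, and 57.2% of its exon bases overlap those of another gene. Among the remaining 35 genes, 6 share 0.854% to 13.9% of their exon bases with another gene and 29 share none.

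Ptprc encodes CD45, which all leukocytes carry. It was measured at 11.4, 14.2 and 22.9 CPM in dFLEx and 53.3 and 70.7 in KP. Each dFLEx tumor lay below both KP tumors, and 3800 and 3802 were alike (edgeR log2 fold change -1.94, standard error 0.58, adjusted p = 0.256, -1.70 without 3802). Per kb of exon, Cd3e was 67.6, 50.8 and 11.1 percent of Ptprc in dFLEx and 9.84 and 59.8 percent in KP, so the tumors of a group did not share this ratio.

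Sums over roles were then compared, tumor by tumor, in a two-sided exact permutation test whose smallest p for 3 against 2 is 0.2. The 14 T cell genes of the receptor, kinase, coreceptor and costimulation groups summed to 234, 60.2 and 87.0 CPM in dFLEx and 29.6 and 91.0 in KP (log2 ratio of the means 1.07, exact permutation p = 0.6). Icos made up most of this sum in dFLEx: without it, as an alternative added after the values were seen, the 13 genes summed to 27.1, 22.9 and 19.9 CPM in dFLEx and 28.1 and 88.7 in KP (-1.33, exact permutation p = 0.2). Tumor 3800 was then 1.04 times the highest dFLEx tumor. The 9 cytotoxic, NK and T-box genes summed to 6.39, 8.88 and 6.17 CPM in dFLEx and 12.7 and 45.5 in KP (-2.03, exact permutation p = 0.2, -0.83 without 3802). The 7 B and plasma cell genes summed to 7.51, 9.31 and 5.29 CPM in dFLEx and 7.58 and 81.4 in KP (-2.59, exact permutation p = 0.4). Tumor 3802 exceeded the highest of the other tumors 8.75-fold in this last sum, and without it the log2 ratio was -0.04.

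**Figure D3:**
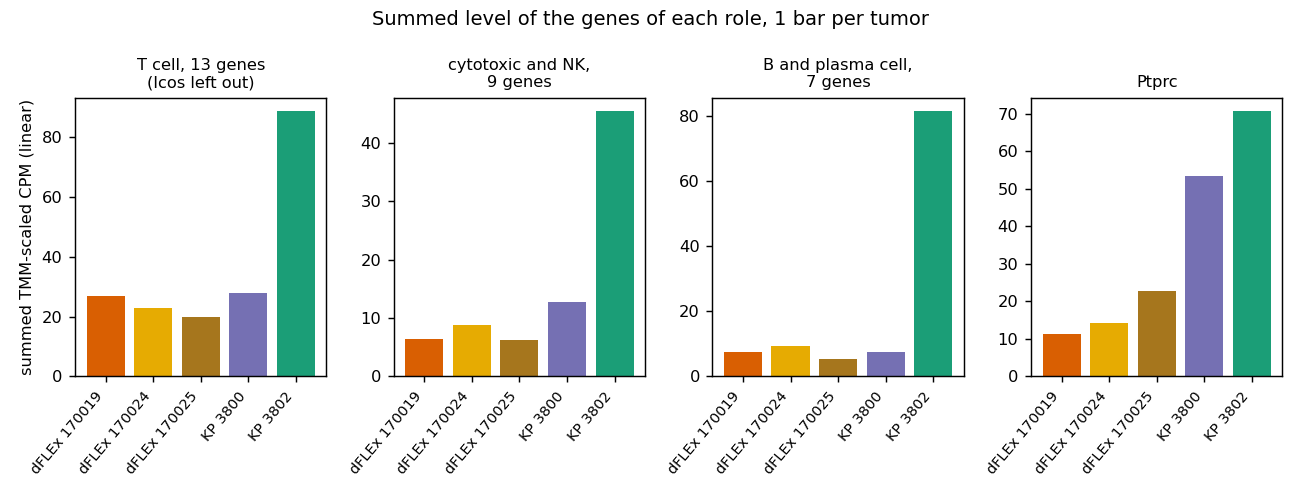
Summed level of the genes of each role, with Icos left out of the T cell sum (y axis, summed TMM-scaled CPM on a linear axis from 0 that differs between panels; 1 bar per tumor). KP tumor 3802 stands above the other 4 tumors in the sums of the 13 T cell genes without Icos, the 9 cytotoxic and NK genes and the 7 B and plasma cell genes, where 3800 is at 28.1, 12.7 and 7.58 CPM, while for Ptprc both KP tumors stand above the dFLEx tumors.

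**Figure D4:**
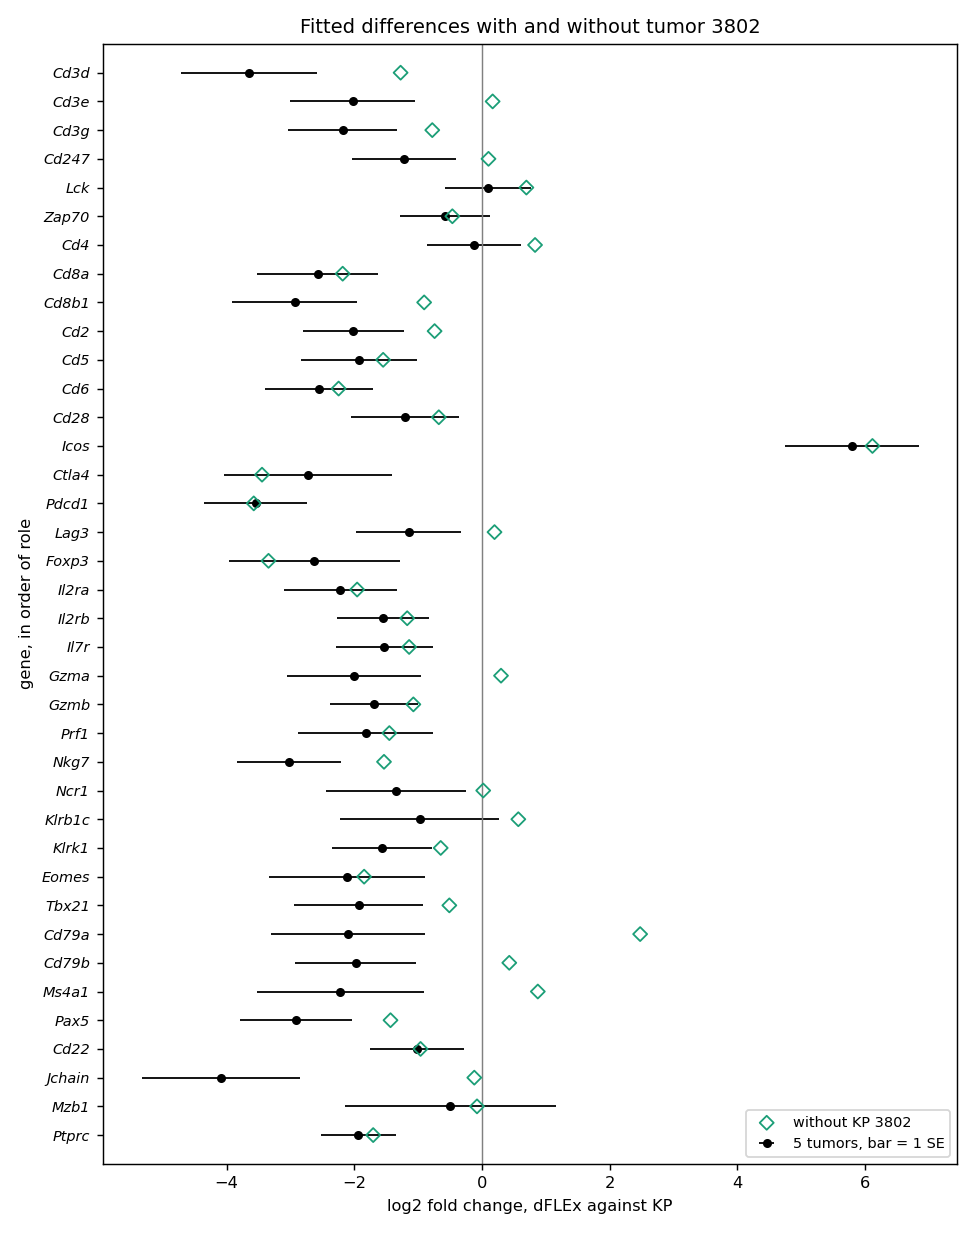
Log2 fold change of each gene, dFLEx against KP (black, all 5 tumors with 1 SE; open diamonds, without KP tumor 3802). Without 3802, 12 of the 38 genes have a value above 0, among them Cd79a at 2.48, while Icos and Pdcd1 stay at 6.11 and -3.57.

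Because many of the counts were low, levels per kb of exon were compared with a background: 1547 olfactory and vomeronasal receptor genes, which are genes of sensory neurons. The 95th percentile of these genes was 0.0872, 0.0578 and 0.00884 CPM per kb in the dFLEx tumors and 0.00941 and 0.376 in the KP tumors, so that tumor 3802 had by far the highest background. Above it in all 5 tumors were 27 of the 38 genes, and by tumor 27, 36 and 38 in dFLEx and 38 and 34 in KP. Cd8a, Cd5, Cd6, Ctla4, Foxp3, Il2ra, Prf1, Eomes, Ms4a1, Pax5 and Mzb1 did not exceed it in 170019. Foxp3 and Ms4a1 did not in 170024, and Ctla4, Foxp3, Eomes and Mzb1 did not in 3802. For Foxp3 and Ctla4 the level of 3802 can therefore not be told from background, while that of 3800 was above it. Cd3d, Cd3e, Cd3g, Icos, Pdcd1, Jchain and Ptprc were above background in all 5 tumors. These statements depend on the percentile: the 99th was 0.619 CPM per kb in 3802 and 0.156 in 170019. Prf1, Cd5, Cd22, Il2ra, Cd28, Cd6, Klrb1c and Ms4a1 in 3802 (0.387 to 0.582) lay between the 95th and 99th percentiles. So did Klrk1, Pdcd1 and Cd28 in 170019 (0.0894 to 0.128). The same held for Pax5, Cd6, Ctla4 and Il2ra in 170024 (0.0668 to 0.0999) and for Ms4a1 in 3800 (0.0239). In 170025 it held for Ms4a1, Foxp3 and Eomes (0.0243 to 0.0448). After subtraction of the mean background per kb, the log2 ratio of the B and plasma cell sum was -2.61 and that of the cytotoxic and NK sum -2.02.

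**Figure D5:**
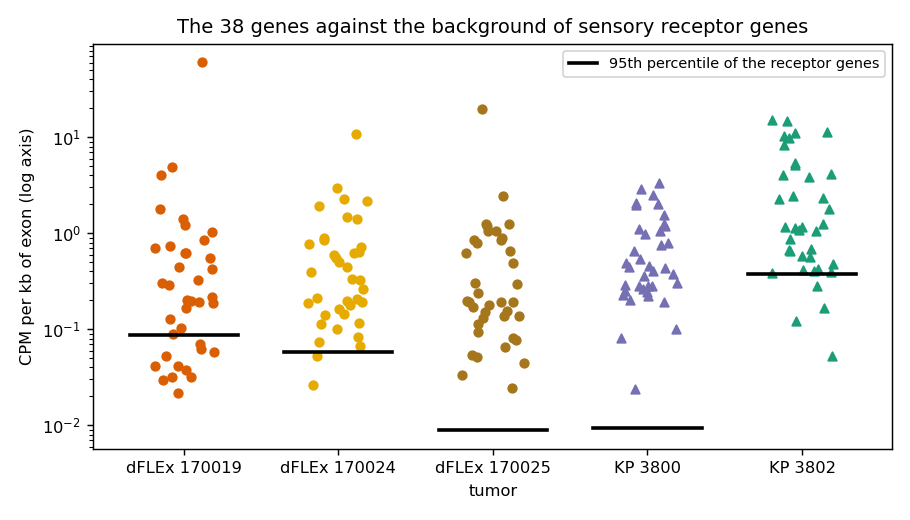
Level of the 38 genes per kb of exon in each tumor (y axis, log scale; 1 point per gene, spread sideways at random) and the 95th percentile of the 1547 sensory receptor genes in the same tumor (black line). All 38 points lie above the line in 170025 and 3800, and 11 lie at or below it in 170019 and 4 in 3802.

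Other lymphocyte genes were read as lists beside the 38, and none of them passed edgeR's adjusted threshold. Of 23 further T cell genes tested, 6 were lower and 0 higher at an unadjusted p under 0.05 (4.93% and 5.65% of all genes), with a median log2 fold change of -1.32 (-0.68 without 3802). The highest of this list per kb were Thy1, which fibroblasts also express, at 81.0, 74.5 and 91.8 CPM in dFLEx and 129 and 179 in KP, then Trbc2 and Lat. Trbc2, a constant region of the TCR beta chain, was at 2.79, 1.80 and 0.693 CPM in dFLEx and 23.3 and 27.4 in KP (edgeR log2 fold change -3.85, standard error 0.74, adjusted p = 0.104, DESeq2 adjusted p = 7.03e-05). Trac, the alpha constant region, was at 1.17, 1.92 and 1.62 CPM in dFLEx and 1.65 and 4.47 in KP, and was looked up after Trbc2 was seen. Trbc2 was thus 3.22, 1.27 and 0.576 times Trac per kb in dFLEx and 19.0 and 8.28 times in KP. Trbc1, the other beta constant region, did not share its pattern. By library it was at 0.281 to 1.52 CPM in dFLEx, 1.19 and 1.25 in 3800 and 9.00 in 3802. Per kb, Trbc2 was 2.29, 2.62 and 2.29 times Trbc1 in dFLEx and 18.9 and 3.88 times in KP. Lat, the adaptor below Zap70, was at 34.4, 21.8 and 7.65 CPM in dFLEx and 3.35 and 15.9 in KP, so that it was lowest in 3800.

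Of 14 further NK and cytotoxic genes, 4 were lower and 1 higher at an unadjusted p under 0.05 (4.93% and 5.65% of all genes), with a median log2 fold change of -0.93 (-0.41 without 3802). Ccl5, a chemokine made by activated T and NK cells and by macrophages, was at 1.44, 2.86 and 0.945 CPM in dFLEx and 33.5 and 54.2 in KP (edgeR log2 fold change -4.65, standard error 0.73, adjusted p = 0.0744, DESeq2 adjusted p = 1.09e-07). Gzmc and Gzme, granzymes of the same gene family as Gzmb, had higher fitted levels in dFLEx. Gzmc was at 28.7, 10.7 and 8.52 CPM in dFLEx and 0.860 and 8.13 in KP, and Gzme at 20.8, 6.14 and 16.1 and 1.21 and 4.92 (log2 fold change 2.24, unadjusted p = 0.0371). Reads that align to several places were not counted, so levels within this granzyme family are uncertain. Per kb, Gzmc was 22.6, 14.2 and 7.65 times Gzmb in dFLEx and 0.385 and 1.78 times in KP.

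Of 20 further B and plasma cell genes, 6 were lower and 2 (Irf4 and Prdm1) higher at an unadjusted p under 0.05, against 4.93% and 5.65% of all genes. The antibody genes were high in 3802: Igkc was at 8.56, 4.01 and 2.91 CPM in dFLEx and 4.02 and 223 in KP. Igha was at 2.24, 3.99 and 0.378 CPM and 6.82 and 55.8, and Ighm at 5.22, 14.9 and 15.7 and 15.8 and 36.4. Antibody genes also resemble each other, so their levels carry the same uncertainty. The median log2 fold change of this list was -2.08 with 3802 and 0.50 without it. Irf4, named with Prdm1 after their values were seen, is a factor of plasma cells and of activated lymphocytes and macrophages, and was at 12.5, 6.36 and 8.14 CPM in dFLEx and 2.27 and 2.23 in KP. Prdm1, the plasma cell factor Blimp-1, was at 17.2, 7.77 and 18.1 CPM in dFLEx and 4.12 and 3.49 in KP, while Jchain and Igkc in the dFLEx tumors stayed at or below 1.49 and 8.56 CPM.

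Chemokines that draw lymphocytes were lower in dFLEx in 4 of 8 genes and higher in 0 at an unadjusted p under 0.05 (4.93% and 5.65% of all genes), with a median log2 fold change of -1.37 (-0.61 without 3802). The 4 were Cxcl9, Cxcl10 and Cxcl11, the interferon-induced ligands of CXCR3, and Cxcl16, the ligand of CXCR6. Cxcl10 was at 1.97, 5.12 and 2.81 CPM in dFLEx and 31.2 and 40.5 in KP (edgeR log2 fold change -3.44, standard error 0.66, adjusted p = 0.103, DESeq2 adjusted p = 0.000105, -3.22 without 3802). The highest of the list per kb were Ccl21a (4.71 to 16.5 CPM in dFLEx, 12.3 to 41.4 in KP), Cxcl16 (17.1 to 45.9 and 64.3 to 115) and Cxcl12 (60.9 to 84.0 and 85.2 to 124). Among 8 ligands of checkpoint and costimulatory receptors, 2 were lower (Cd274, which encodes PD-L1, and Cd86) and 0 higher at an unadjusted p under 0.05, beside the same shares of all genes. Lgals9, the highest per kb, was at 37.8 to 44.4 CPM in dFLEx and 57.5 to 60.6 in KP, and Cd86 at 1.97 to 5.27 CPM in dFLEx and 10.7 CPM in both KP tumors.

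Markers of other cells also differed in level between tumors, and their part in the results above was not tested. Macrophage markers, led by C1qa, Lyz2 and C1qb, summed to 1214 to 1419 CPM in dFLEx and to 2990 and 5931 CPM in KP, with 10 of 12 lower in each dFLEx tumor than in both KP tumors, which held for 11.7% of all genes. Dendritic cell markers (highest per kb Itgax, Zbtb46 and Cd209a) summed to 20.4, 23.6 and 35.5 CPM in dFLEx and 36.3 and 35.1 in KP. They did not move together: of the 7, 4 were lower and 2 higher in each dFLEx tumor than in both KP tumors (11.7% and 13.7% of all genes). By library, Itgax was at 1.76 to 5.79 CPM in dFLEx and 20.9 to 27.4 in KP, and Zbtb46 at 12.4 to 23.1 and 2.46 to 5.41. Neutrophil markers (highest per kb S100a9, S100a8 and Ngp) had their highest sum in 170024, at 68.5 CPM against 7.39 to 41.9 in the other tumors. Not all genes of this list followed the sum: by library, Csf3r, Ly6g and Mmp8 were highest in 3802. Csf3r was at 2.54 and 2.75 CPM in the libraries of 170024 and at 8.76 in that of 3802. Mast cell markers (highest per kb Mcpt4, Tpsb2 and Cma1) summed to 34.9 to 91.0 CPM over the 5 tumors. This sum includes Kit, at 13.7 to 50.3 CPM in the dFLEx libraries and 6.18 to 8.81 in the KP libraries. Mcpt4, Tpsb2 and Cma1 were each lowest in the libraries of 170025. Myocyte markers (Acta1, Tnnt3 and Ckm) summed to 5941 to 23722 CPM in dFLEx and to 1092 and 2990 CPM in KP, and endothelial markers (Cdh5, Pecam1 and Kdr) to 152 to 483 and to 122 and 60.0 CPM. Of these markers, Ly6g was at 0 counts in 170025 and Ngp in 3800, and the others had counts in every tumor.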

How the data were processed

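RNA of flash-frozen mouse tumors was split by the authors into duplicates for rRNA-depleted paired-end libraries, of which 9 of the 10 labelled were analysed here (3802-R2 was not). The authors trimmed reads with Trimmomatic 0.39, aligned them with STAR 2.7.10a to mm39 extended by the fusion construct, and deposited raw counts per gene from featureCounts 2.0.3. Per the file headers, strand was ignored, reads with several alignments or over several genes were left out, and mates were counted separately. Symbols came from GENCODE M39 (98.7% of features). Counts were summed per tumor, filtered (filterByExpr), scaled by TMM and fitted with edgeR 4.0.16 (glmQLFit, glmQLFTest; R 4.3.3), with Benjamini-Hochberg adjustment over all 24743 genes and a threshold of 0.05. SE is the absolute log2 fold change over the square root of F. DESeq2 1.42.0, other scalings and filters, single libraries, background subtraction and each tumor left out were alternatives. Sums were compared by exact permutation (SciPy 1.17.1). Promoters were read from GRCm39. Values in every tumor are given for genes of at least 1 CPM in any tumor, and of the other lists the 3 highest genes per kb are named, besides members of counts of 5 or fewer, named after their values were seen. The members, lists and tests were chosen with earlier results of these data known.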

Additional observations from a re-analysis of the deposited data

How the results depend on the processing

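The tumor count limits these results: 3 against 2 tumors, with 3802 as 1 library, allow an exact p of 0.2 at the least, and low counts leave 11 of the 38 genes at background in at least 1 tumor. Of the 38 genes, 0 were called by edgeR on tumor sums, and the same held for 1 library per tumor, RLE, library totals, upper quartile, a mean of at least 1 CPM, counts divided by 2, background subtraction and each dFLEx tumor left out. Fits without a KP tumor leave 1 in that group, so no calls among the 38 are given for them. The count was 7 with DESeq2, 3 without a filter and 12 with the libraries as independent samples (6 with the duplicate number as replicate block, which pairs nothing but a number; no paired analysis of the tumors was possible because they share no number). Over all genes, 45 were called, 1388 with DESeq2, 880 without a filter, 80 at a mean of at least 1 CPM, 3344 with the libraries as independent samples and 2476 with the replicate block, and 0 to 414 with 1 tumor left out, and the cause was not tested. The upper end of that last range came from the fit without 3802, which leaves 1 KP tumor, and is not read as a result. With a dFLEx tumor left out, 0 to 9 of all genes were called. The scalings moved the median over all genes to -0.26 (RLE), -0.34 (upper quartile) and -0.47 (library totals). Relative to that median, the 38 stood at -1.78 with TMM and at -1.84, -2.02 and -1.86 with these. With 1 tumor left out the median of the 38 ranged from -2.19 to -0.76. The log2 ratio of the T cell sum turned to -1.33 without Icos. That alternative, and background subtraction in the fits, were added after the data were seen. Of the 38 genes, 27 were above background in all 5 tumors.

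The sign of Lck turned with other scalings or filters, and it was at -0.27 with library totals, -0.17 with upper quartile, -0.0042 with RLE, -0.12 at a mean of at least 1 CPM and -0.0052 with counts divided by 2. Cd4 turned to 0.0039 and 0.13 with the libraries as independent samples (without and with the block) and to 0.0744 without a filter. With 1 tumor left out, log2 fold changes ranged as follows, and the value above 0 came without 3802 for each gene but Lck, which was below 0 without 170019 and without 3800: Cd3e -2.71 to 0.17, Cd247 -1.74 to 0.10, Lck -0.43 to 0.69, Cd4 -0.54 to 0.83, Lag3 -1.84 to 0.20, Gzma -3.01 to 0.30, Ncr1 -1.89 to 0.0184, Klrb1c -1.57 to 0.57, Cd79a -2.91 to 2.48, Cd79b -2.68 to 0.43 and Ms4a1 -2.98 to 0.87. No other gene of the 38 turned in sign in a fit that tested it.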
